A study of Mytilus galloprovincialis with 40 samples.

Results

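The early autumn step set October 2007 against September 2007 in mussel females (*Mytilus galloprovincialis*), and relative transcript abundance was measured in their digestive gland. It comprised the 3 arrays whose labels give October against September, chosen from their titles alone out of 40 arrays, and each array reported on 1920 cDNA clones. The whole series followed the mussels of the Bizerta Lagoon through 12 months, from May 2007 to April 2008, and each array set 1 month against the month before it, except that the loop was closed by arrays of May 2007 against April 2008. Every array held the RNA of single females labelled with Cy3 or Cy5, so that an array was a comparison of an October female with a September female and not of 2 pools. October was in Cy5 on array 1 and in Cy3 on arrays 2 and 3. The animals were a natural population with no treatment, and the females were taken from the gonad stage most represented in the month, so that month, gonad stage and lagoon conditions cannot be told apart. The labels do not say whether a female of 1 step was also used in the next. The p-values of the loop fit measure only the spread of the 40 arrays around the fitted monthly levels.

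The digestive gland is the main organ of food processing in bivalves: its tubules take up particles that the gills have filtered, digest them inside and outside the cells, and store lipid and glycogen. It is also where mussels take up and detoxify metals and organic pollutants. In autumn Mediterranean mussels usually leave a resting period and start to build up their gonads, for which stored reserves are drawn on. The clones are 3′ cDNA probes named by position codes, and the files used here pair the codes with neither gene names nor sequences. Functions, markers of digestive cells or of other cell types, and probe sequences were therefore not analysed here, and clones are described by code.

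The 3 arrays differed in quality. The share of clone spots above background in both channels was 41.8% on array 1, 35.2% on array 2 and 59.5% on array 3, against a median of 39.7% and a range of 13.6% to 78.4% over the 40 arrays. The 2 spots of a clone correlated across clones with r = 0.895, 0.611 and 0.767 on the 3 arrays. Array 2 had the narrowest ratios, with an SD over clones of 0.32 on the log2 scale, against 0.47 on array 1 and 0.44 on array 3. At least a 2-fold difference was measured for 87 clones on array 1, for 35 on array 2 and for 77 on array 3. No clone spot was saturated.

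Between September and October few clones were called, and about as many were higher as lower. A clone that was not called was not shown to be unchanged. Of 1920 clones, 37 were called (1.93%), with a Benjamini-Hochberg adjusted p under 0.05 and a log-odds B above 0 in the limma fit of the whole loop. The 18 clones higher in October (0.938%) differed by a median of 1.76-fold, with a range from 1.45 to 3.14. The 19 clones lower in October (0.99%) differed by a median of 1.82-fold, with a range from 1.40 to 7.79, the last for a clone whose October signal was not above background. The difference was at least 2-fold in 6 of the 18 and in 8 of the 19. In these whole-gland extracts, fewer cells of a type and less RNA per cell cannot be told apart. Without array 3 the count of calls was 21, with 8 higher and 13 lower, and without array 1 it was 30, with 22 higher and 8 lower. With median centring in place of loess it was 18, and in a fit of the 3 arrays alone it was 7.

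The differences of most clones were small, many of them in clones too dim to measure one. The fitted log2 difference had quartiles of -0.12 and 0.13, and 90% of the clones lay between -0.40 and 0.46. The median standard error was 0.15, close to the median size of a difference, 0.12. That median size went from 0.05 in the dimmest 384 clones, none of them above background in both channels on all 3 arrays, to 0.26 in the brightest 384. At an unadjusted p under 0.05 there were 293 clones, 141 higher and 152 lower. The adjusted p alone passed 79 clones (4.11%), 37 higher and 42 lower. The last clone called had B = 0.04 with a log2 difference of 0.63, and the next had B = -0.05 with a log2 difference of -0.77.

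**Figure D1:**
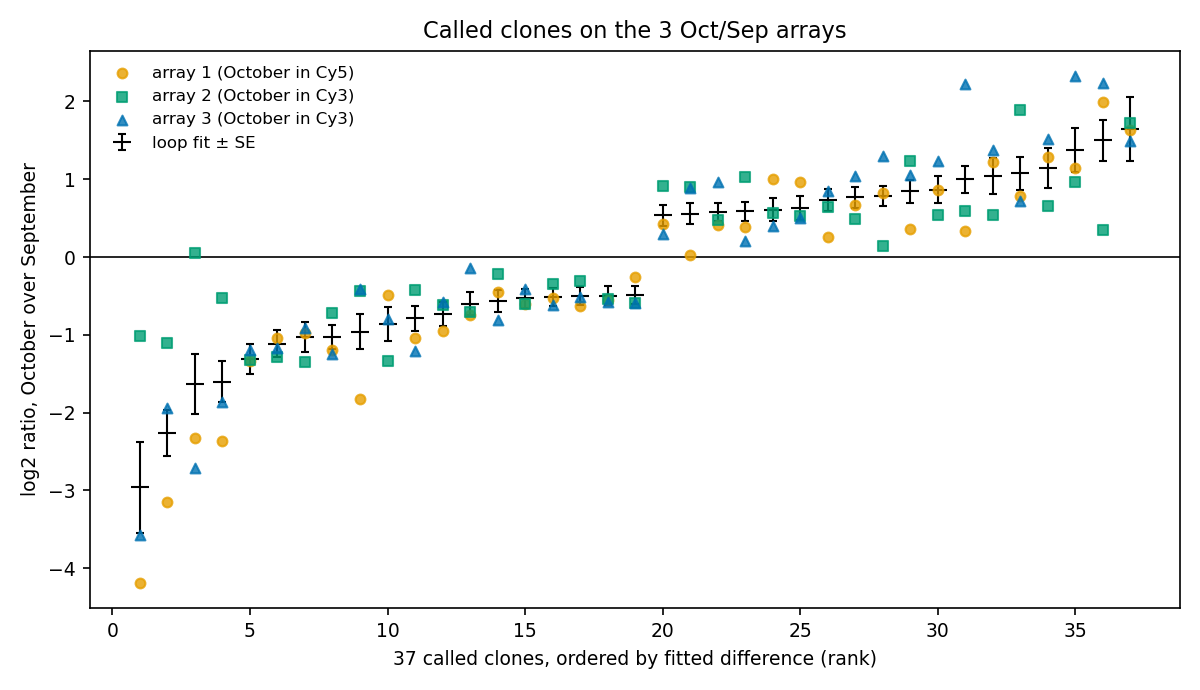
Log2 ratio, October over September, of the 37 called clones on each of the 3 arrays, ordered by the fitted difference of the loop, which is drawn as a dash with its SE. All 18 clones called higher were above 0 on the 3 arrays, and 18 of the 19 called lower were below 0 on all of them.

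In 36 of the 37 called clones the direction was the same on all 3 arrays, while the size varied between them. On array 1 the 18 clones called higher had log2 ratios from 0.02 to 2.00 with a median of 0.81, on array 2 from 0.14 to 1.88 with a median of 0.62, and on array 3 from 0.20 to 2.33 with a median of 1.05. The 19 clones called lower ran from -4.18 to -0.26 with a median of -0.98 on array 1, from -1.36 to 0.05 with a median of -0.61 on array 2, and from -3.57 to -0.13 with a median of -0.82 on array 3. Both directions thus had their smallest median on array 2. Array 2 gave the smallest of the 3 ratios in 7 of the 18 clones called higher and in 10 of the 19 called lower. The SD over the 3 arrays had a median of 0.44 in the clones called higher and of 0.29 in those called lower, and it was below the size of the mean in each of the 37. Among the 1883 clones not called, it was below the size of the mean in 563 (29.9%). These arrays carried 90.9% of the weight of the fitted difference, so the direction on them describes the calls and does not test them.

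Myt01-011D05 rose by the larger amount of the 2 named clones higher in October. Its normalized intensity was 1563 in the October female and 391 in the September female of array 1, 866 and 683 on array 2, and 3180 and 673 on array 3. The log2 ratios were 2.00, 0.34 and 2.24, a mean of 1.53 ± 1.03 (SD, n = 3). October was brighter on every array, strongly on arrays 1 and 3 and slightly on array 2. The fitted difference was 1.50 ± 0.26 (SE), or 2.82-fold, with a limma adjusted p of 5.70e-04.

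Myt01-004E12 was a dimmer clone. It measured 309 in October and 174 in September on array 1, 117 and 106 on array 2, where neither channel was above background, and 479 and 194 on array 3. Its log2 ratios of 0.83, 0.14 and 1.30 gave a mean of 0.76 ± 0.58 (SD, n = 3), so that the weak ratio came from the array on which the clone was not above background. The fitted difference was 0.78 ± 0.13 (SE), or 1.72-fold, with a limma adjusted p of 3.71e-04. Without array 3 neither clone was called: the log2 difference was 0.56 for Myt01-004E12 and 1.18 for Myt01-011D05.

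Myt01-007B10 had the lowest adjusted p of all clones and fell in October. The October and September females measured 164 and 1464 on array 1, 183 and 394 on array 2, and 244 and 938 on array 3. The October values of the 3 females lay between 164 and 244, whereas the September values spread from 394 to 1464. Intensities were normalized within arrays only, so values of different arrays are not on a common scale. The clone was also chosen for its difference, so the separation of the months is a description. The log2 ratios were -3.15, -1.11 and -1.94, a mean of -2.07 ± 1.03 (SD, n = 3). The fitted difference was -2.27 ± 0.30 (SE), or 4.81-fold lower, with a limma adjusted p of 1.82e-05.

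Myt01-009D10 fell by nearly the same amount on each array. It measured 343 in October and 867 in September on array 1, 234 and 586 on array 2, and 570 and 1301 on array 3. The log2 ratios of -1.34, -1.32 and -1.19 gave a mean of -1.28 ± 0.08 (SD, n = 3). The fitted difference was -1.31 ± 0.19 (SE), or 2.48-fold lower, with a limma adjusted p of 1.09e-04. Both clones that fell were called whichever of the 3 arrays was left out.

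Another 3 called clones were chosen after their values were seen, because their size or direction is limited. Myt01-009D11 had the largest fitted fall, and it was not above background in October on any array, while it was above background in September on 2 of 3. Its log2 ratios were -4.18, -1.01 and -3.57. On the mean of the 3 arrays it was 6.72-fold lower in October. For this mean, October took on each array the higher of the lowest signal above background and the clone's own signal. The mean includes the array on which September was not above background, so it is no lower limit for a single array. The limma adjusted p of 0.0021 tests the fitted difference against 0 and not this value. Myt01-012D01 was not above background in September on any array and was above it in October on all 3, with log2 ratios of 0.66, 0.49 and 1.05. The mean of these ratios was 1.66-fold higher in October, which is the measured mean and no lower limit. The limma adjusted p of its fitted difference was 5.70e-04. Myt01-009B11 was the 1 called clone with mixed signs, at -2.32, 0.05 and -2.72, so that only arrays 1 and 3 showed a fall, and its fitted difference was -1.63 ± 0.39 (SE) with a limma adjusted p of 0.0126.

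A large difference was not enough for a call. The fitted difference was at least 2-fold in 30 clones, and 14 of them were called. The 16 that were not, 8 higher and 8 lower, included the largest fitted rise, of 2.29 on the log2 scale, and had adjusted p-values from 0.0208 to 0.266. Their median standard error was 0.38, against 0.26 in the 14 called, although their ratios varied less over the 3 Oct/Sep arrays, with a median SD of 0.40 against 0.55. The standard error comes from the spread of all 40 arrays around the fitted monthly levels. Those levels ranged over the 12 months by a median of 2.68 on the log2 scale in the 16 clones, against 2.05 in the 14 called. Each month has its own coefficient, so this range does not itself enter the standard error. The cause of the larger standard errors was not tested. On each of the 3 arrays separately, 9 clones were past 2-fold in 1 direction, of which 5 were called and 4 were not.

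Over all clones the 3 pairs of females resembled each other weakly. The log2 ratios of arrays 1 and 2 correlated with r = 0.19, those of arrays 1 and 3 with r = 0.44 and those of arrays 2 and 3 with r = 0.39, across 1920 clones that share the arrays and are not independent. By r the pair with the same dye orientation, arrays 2 and 3, was between the pairs with opposite orientation. By rank correlation it was the highest, at 0.266, against 0.263 for arrays 1 and 3 and 0.093 for arrays 1 and 2. The part of the dye in this was not tested. The sign agreed in 52.6%, 57.5% and 57.0% of the clones of these pairs, and on all 3 arrays in 644 clones (33.5%), 311 higher and 333 lower. In the 33.1% of clones above background in both channels on all 3 arrays, r was 0.15, 0.50 and 0.36. The weakest pair was again arrays 1 and 2, so that limiting the clones to bright ones did not raise it.

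**Figure D2:**
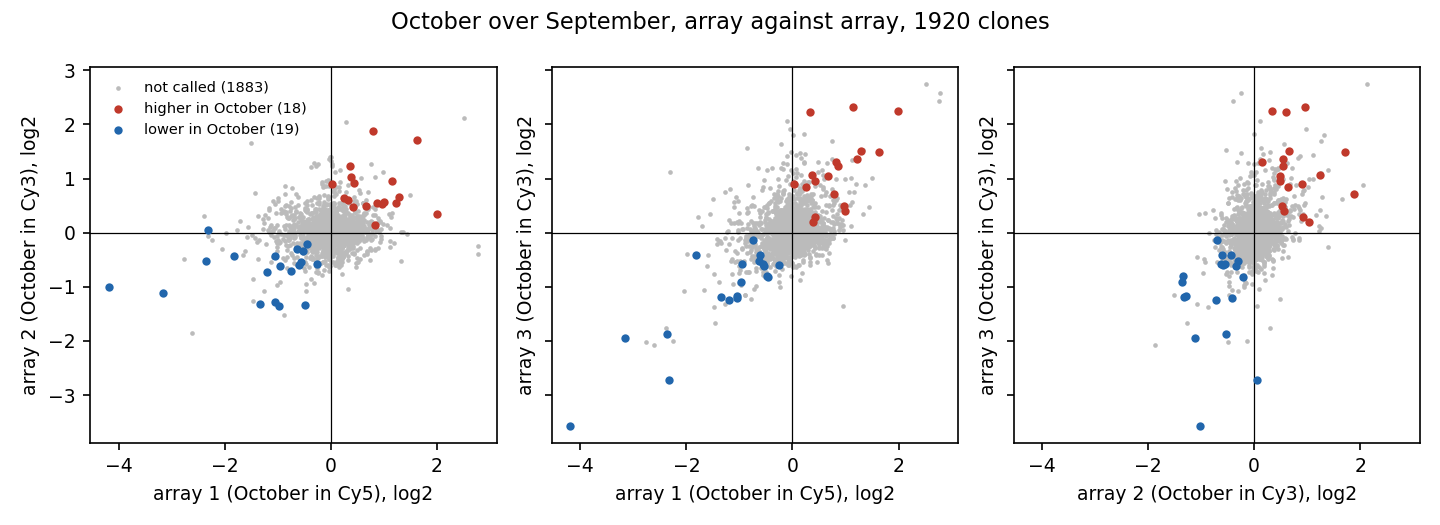
Log2 ratio, October over September, of the 1920 clones on one array against another, a panel for each pair of the 3 arrays, with the called clones in colour. The clouds are broad, with r = 0.19, 0.44 and 0.39, while the called clones lie toward the corners of equal sign.

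The larger ratios of an array leaned to 1 dye. In the 87 clones past 2-fold on array 1, 66 were lower in October, which was in Cy5. In the 35 of array 2 and the 77 of array 3, 23 and 54 were higher in October, which was in Cy3. The Cy3 animal was therefore the brighter one in 75.9%, 65.7% and 70.1% of these clones. In the clones above background in both channels on all 3 arrays the Cy3 counts were 50 of 67, 9 of 18 and 27 of 41. Over the series 25 of 40 arrays had more clones past 2-fold on the Cy3 side, but in these brighter clones it was 19 of 40, with 20 on the Cy5 side and 1 tied. With a dye term for each clone, 41 clones were called, 35 of them among the 37, and none of the 37 had a called dye effect, while 51 other clones did.

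Calls became more frequent in brighter clones. In 5 groups of 384 clones ordered by mean intensity, 0, 1, 8, 10 and 18 were called from the dimmest to the brightest (0%, 0.26%, 2.08%, 2.60% and 4.69%). The share with the same sign on the 3 arrays went from 27.3% in the dimmest group to 40.4% in the brightest, and the median standard error from 0.11 to 0.18. Of the 33.1% of clones above background in both channels on all 3 arrays, 23 were called (3.62%), and of the other 1285 clones 14 were (1.09%). The part that brightness had in the calls was not tested.

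**Figure D3:**
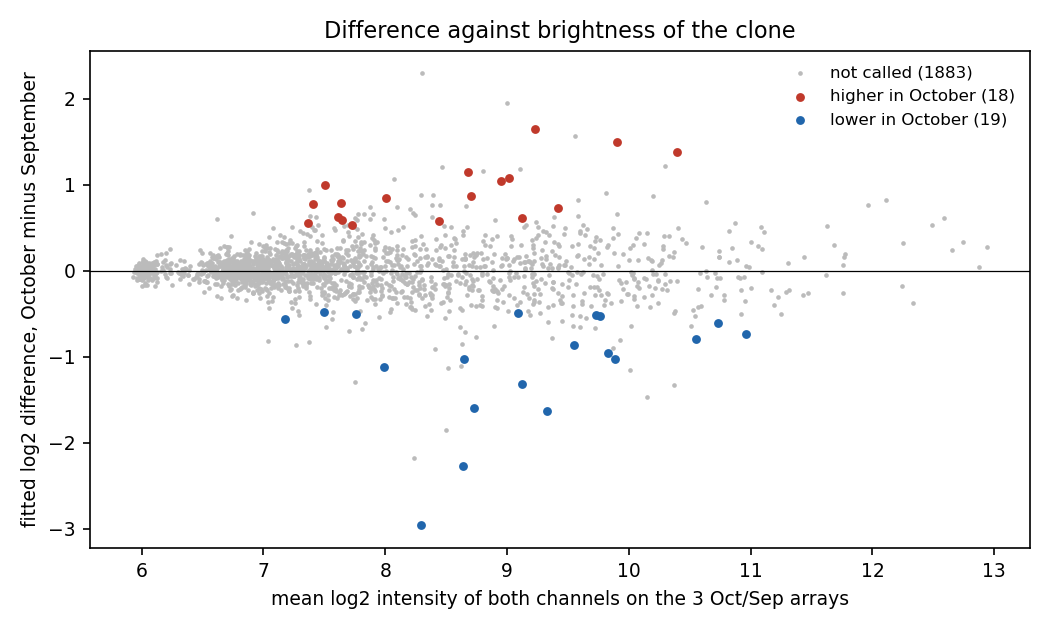
Fitted log2 difference, October minus September, against the mean log2 intensity of both channels on the 3 arrays, for 1920 clones with the called ones in colour. The cloud is narrow among dim clones and widens with brightness, and 18 of the 37 called clones are in the brightest group of 384.

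The called clones were spread over the slide. They lay in 14 of the 16 printing blocks, with 0 to 6 in a block, and under 15 of the 20 numbers of the position codes. Number 9 held the most, 6 of 96 clones, of which 5 were lower in October. The 2 spots of a clone lie in the same block, so that their agreement does not cover differences between blocks. The median difference of a code number was between -0.09 and 0.09 on the log2 scale.

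The next question was how October against September compared with the steps on either side of it. The named clones had ratios of the opposite sign after October. On the 3 Nov/Oct arrays the log2 ratios were -1.23, -0.81 and -0.69 for Myt01-011D05 and -0.57, -0.65 and -0.76 for Myt01-004E12. For the clones that had fallen they were 1.17, 2.31 and 1.23 in Myt01-007B10 and 0.82, 2.18 and 1.33 in Myt01-009D10. Each of these 12 ratios had the opposite sign to the October step. In the limma fit the Nov/Oct difference was called for Myt01-004E12 at -0.64 ± 0.13 (SE), for Myt01-007B10 at 1.37 ± 0.30 and for Myt01-009D10 at 1.42 ± 0.19. For Myt01-011D05 it was not called, at -0.94 ± 0.26 (limma adjusted p 0.0086, B below 0). The Nov/Oct step was wide over all clones. On its arrays 69, 213 and 210 clones were past 2-fold, against 87, 35 and 77 on the Oct/Sep arrays. The share of all clones called for Nov/Oct was not counted, so it is not known whether these calls are particular to the named clones.

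Before October the same clones showed no called step. The Sep/Aug ratios were 0.73, -0.84 and -0.20 for Myt01-011D05 and 0.31, 0.02 and -0.12 for Myt01-004E12. They were -1.53, -0.39 and 0.01 for Myt01-007B10 and 0.54, 0.11 and 0.24 for Myt01-009D10. The spread over 3 arrays was as large as the mean or larger in 3 of these clones, and Myt01-009D10 was above 0 on each array. The fitted Sep/Aug differences were -0.13 ± 0.26 (SE), 0.10 ± 0.13, -0.84 ± 0.30 and 0.26 ± 0.19 in this order, with limma adjusted p-values of 0.894, 0.82, 0.0804 and 0.541.

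**Figure D4:**
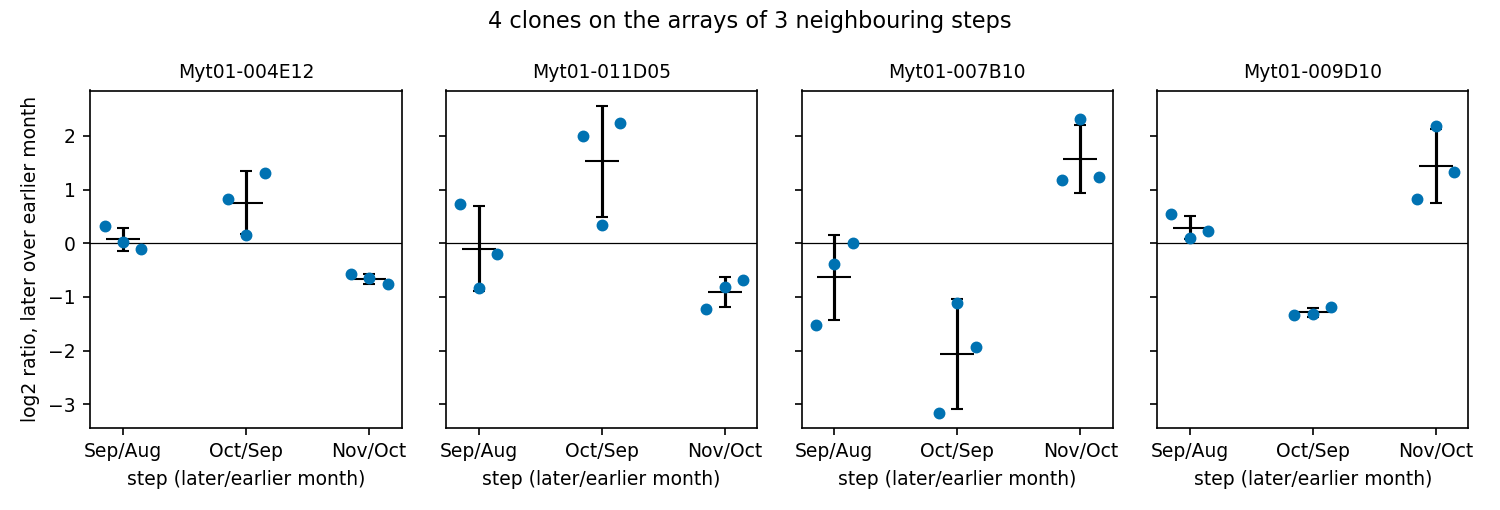
Log2 ratio, later over earlier month, of the 4 named clones on the 3 arrays of each of 3 neighbouring steps, with points for arrays and a dash with bars for their mean ± SD. The Oct/Sep and Nov/Oct points lie on opposite sides of 0 in every panel.

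The difference between steps was tested in the same fit. October against September differed from November against October in 136 clones (7.08%), 51 with the more positive value in the October step and 85 with the more negative one. Of the 136, 113 were not called for October against September. The count of 136 became 88 without Nov/Oct array 3 and 72 with median centring. From September against August the October step differed in 58 clones (3.02%), 31 more positive and 27 more negative. Of the 58, 40 were not called for October against September. These steps share the October or the September level with opposite sign, so that a departure of 1 month enters both sides of the difference. All 4 named clones were called for the first difference and Myt01-011D05 and Myt01-009D10 for the second, but they were chosen on the October step, which is 1 side of both differences, so that these calls are no independent test.

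The ratios of the called clones in the 3 steps are given side by side. Those called higher had a median of -0.09 for Sep/Aug, 0.82 for Oct/Sep and -0.52 for Nov/Oct, with 16 of 18 below 0 in the last. Those called lower had medians of 0.29, -0.89 and 0.25, with 11 of 19 above 0 for Nov/Oct and 17 of 19 above 0 for Sep/Aug. In the clones called higher the larger of the neighbouring medians was thus that of Nov/Oct, and in those called lower the 2 were of about the same size. These are descriptions: the choice of clones with a large October step by itself makes their ratios smaller in other steps, and the shared month enters the neighbouring ratio with the opposite sign. The difference between the sets was not tested.

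Over the year, the called clones did not all have their extreme level in these months. The level of a clone, relative to its mean over the 12 months, had a median of -0.40 in September and of 0.42 in October on the log2 scale in the 18 clones called higher. It was -0.27 in August and -0.10 in November, so that August was nearer to September and November lay between September and October. In the 19 clones called lower the median level was 0.24 in August, 0.53 in September, -0.30 in October and -0.16 in November. September was the lowest month in 9 of the 18 and October the highest in 8. In the 19, September was the highest month in 7 and October the lowest in 5. The choice of the clones by these months raises these counts, and the share over all clones was not counted.

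**Figure D5:**
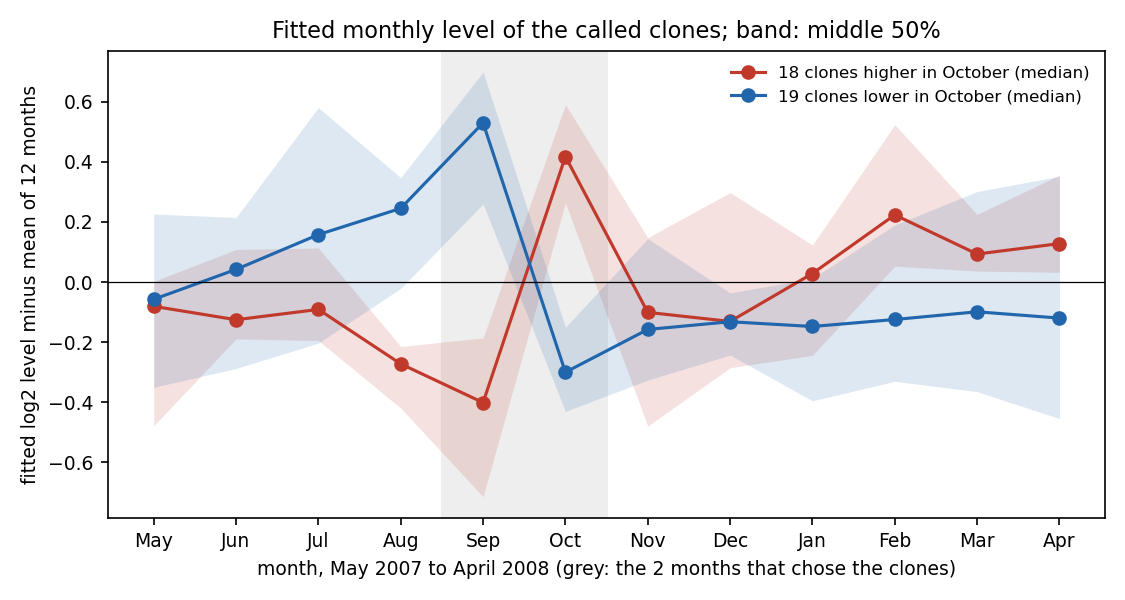
Fitted log2 level of the called clones in each month minus the mean of 12 months, as the median and the middle 50% of the 18 clones called higher and of the 19 called lower. The sets cross between September and October, the months that chose them, from medians of -0.40 and 0.53 to medians of 0.42 and -0.30.

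The named clones differed in their course over the year. Myt01-007B10 was highest in August, at 1.12, and lowest in October, at -1.99, with November the next lowest at -0.62. Myt01-009D10 was at -1.34 in October and at -1.14 in January, and between -0.29 and 0.76 in the other months. Myt01-011D05 was lowest in September, at -0.80, after -0.66 in August and -0.57 in July, and its October level of 0.70 was below that of December, 0.92. Myt01-004E12 was highest in October, at 0.67, and next in May, at 0.36. The step was a median of 64.7% of the year's range in the clones called higher and of 67.7% in those called lower, values that the choice of the clones raises.

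The months September and October are also joined the other way round the year, through the 11 other steps and their 37 arrays. Along that path the median difference was 0.60 in the clones called higher, with a median standard error of 0.47, and -0.78 in those called lower, with a median standard error of 0.52. The 3 Oct/Sep arrays gave 0.82 and -0.89. Along the path the named clones had 1.21 ± 0.77 (SE) for Myt01-011D05 and 1.03 ± 0.36 for Myt01-004E12. The values were -4.25 ± 0.83 for Myt01-007B10 and -1.59 ± 0.68 for Myt01-009D10. Over all 1920 clones the direct and the long-path difference had the same sign in 54.4% and correlated with r = 0.27. Calls were chosen on both sources together, and the long path is less precise, so the values stand side by side without a test.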

How the data were processed

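Each array carried 1920 clones in 2 spots each. The authors deposited spot intensity values, mean foreground and median background of each dye, read with GenePix and not normalized, and the authors' normalized log2 ratios in a table. The latter were recomputed from the intensities to within 5.0e-10 for the 3 Oct/Sep columns (normexp with offset 50, loess over all spots, dye-label direction) and used as an alternative only, with 38 of the 40 columns. The 2 left out, of other steps, did not match their own scanner values, and these 2 arrays entered the fits through their scanner values.

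Intensities were corrected with normexp (offset 50), normalized within arrays by global loess on clone spots and averaged over the 2 spots. Ratios were turned to October over September by the dye labels, which differ between arrays. A spot was above background where its foreground exceeded the mean background by 2 SD. The 40 arrays were fitted with limma 3.58.1 (R 4.3.3), with each month but January as a coefficient against it, 29 residual and 3.68 prior degrees of freedom. Clones were called at a Benjamini-Hochberg adjusted p under 0.05 over 1920 clones with B above 0, two-sided. Contrasts were October minus September and its differences from the steps on either side. The fit was tested on simulated data with independent normal noise on each array. The simulation held no dye effect and no shared females, so it does not cover either. The number of arrays limits precision.

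Named clones were the 2 called in each direction with the highest B that kept their sign on the 3 arrays and lay above background in both channels on at least 2. The step, the rule and the tests were chosen with earlier results of these data known. No code was found in the reference gene table, so gene lists were not analysed here. Alternatives varied the background correction, normalization, filter, dye term, replicate block, array weights, source of ratios, call rule and arrays fitted.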

Additional observations from a re-analysis of the deposited data

Results flagged for a closer look

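For the named clones the limma fit called differences between the October step and a neighbouring step. The clones were chosen for their October step, which is 1 side of each difference, so that the p-values below are a description and no independent test. October against September minus November against October was 1.42 ± 0.20 (SE, log2) for Myt01-004E12, 2.43 ± 0.39 for Myt01-011D05, -3.64 ± 0.44 for Myt01-007B10 and -2.73 ± 0.29 for Myt01-009D10, with adjusted p-values of 3.72e-06, 3.38e-05, 4.11e-07 and 7.20e-08. October against September minus September against August was 1.63 ± 0.39 for Myt01-011D05 (adjusted p 0.0076) and -1.58 ± 0.29 for Myt01-009D10 (adjusted p 3.97e-04). The same difference was 0.69 ± 0.20 for Myt01-004E12 and -1.43 ± 0.44 for Myt01-007B10, with adjusted p-values of 0.025 and 0.0409 and B below 0, and was not called.

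The alignment spots, which were left out of the comparisons, were above background in both channels at 95.5%, 98.2% and 98.2% of 112 positions on arrays 1, 2 and 3. Positions with no clone were above background in both channels at 0, 1 and 0 of 608. The groups of 3 arrays were too small for a test of single outlying arrays.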

How the results depend on the processing

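In place of 37, the count of called clones was 18 with median centring, 79 with the adjusted p alone, 7 in a fit of the 3 Oct/Sep arrays alone (3 of them among the 37) and 2 in the loop without these arrays, the last 2 fits resting on fewer arrays. It was 25 to 43 under the other alternatives, of which plain background subtraction kept 21 of the 37, print-tip loess 27 and no background correction 32. With plain subtraction the median log2 difference of its own calls was 1.08 for those higher and -1.51 for those lower, against 0.81 and -0.86. Leaving out 1 of the 40 arrays gave 21 to 48 calls (21 to 35 for the Oct/Sep arrays), and 7 of the 37 were called without each of the 3 Oct/Sep arrays and 4 in none of these fits, while the sign was kept in 37 of 37. The difference from the Nov/Oct step was called in 72 clones with median centring and in 152 with the dye term. That from the Sep/Aug step was called in 45 with median centring and in 83 with array weights. With 1 array of the Oct/Sep, Nov/Oct or Sep/Aug steps left out, the counts were 88 to 150 and 41 to 63. Arrays of other steps were not left out for these differences. In the 3 Oct/Sep arrays alone Myt01-009D10 was called, and Myt01-004E12, Myt01-011D05 and Myt01-007B10 were not (adjusted p 0.372, 0.345 and 0.235). Where calls were lost with median centring, the cause was not tested. Deviations of same-numbered arrays of neighbouring steps correlated with r from -0.09 to 0.26. Differently numbered ones correlated with r from -0.46 (Oct/Sep array 2 with Sep/Aug array 1) to 0.33 (Oct/Sep array 3 with Sep/Aug array 1). With 3 arrays in a step the deviations are tied to one another, so these values cannot tell whether females were shared. A fit with the replicate block gave 40 calls, including the 37, with a consensus correlation of 0.0125. Clones below background on both sides have no measurable difference at this signal.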
